A study of Mus musculus with 20 samples.

Results

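Esr1 and Vil1, the mouse genes for estrogen receptor alpha and villin, were described in RNA-seq libraries of jejunal epithelium from female mice. Both were chosen by symbol, with their levels in these libraries already known. They are 2 of the 17294 gene names in the table of the acute time and 2 of the 16195 in that of the prolonged time. There were 7 DKO and 5 control libraries at the acute time, 7 days after ablation, and 5 DKO and 3 control libraries at the prolonged time, 5 months after ablation. DKO stands for a double knockout of Kdm6a and Kdm6b, which encode demethylases of lysine 27 of histone H3, and the control genotype is labelled as control or wild type. The series design places the cells in crypts. The labels call the libraries biological replicates. The recombinase, its promoter, the inducing agent, and whether control mice carried or received any of these are not given in the sources used here.

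Villin is an actin-binding protein of the brush border. It bundles, caps and severs the actin filaments of microvilli, and it is made along the whole crypt and villus of the gut epithelium. Estrogen receptor alpha is a nuclear receptor that is held by HSP90 chaperones until it binds estrogen, after which it binds DNA and recruits coregulators. Both genes have a known use in mouse genetics. Promoter fragments of villin are a standard driver of transgenes in gut epithelium, and inducible recombinases are often fused to a mutated ligand-binding domain of the human estrogen receptor, which tamoxifen activates. The tables hold 1 value per gene and library, so which transcript the reads of either gene came from was not tested.

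The promoter windows of both genes are shown because the villin promoter is the part of Vil1 commonly used in transgenes, and the Esr1 windows because they hold the starts of the endogenous receptor transcripts. Each window runs from 250 bases before to 50 bases after a start, as given by RefSeq in build GRCm38.p6. The windows are those of Vil1 at chr1:74409134-74409433 and of Esr1 at chr10:4611739-4612038 and chr10:4709908-4710207, all on the plus strand. Capitals mark a CArG box, the binding sequence of serum response factor, in Vil1, and the single arm GGTCA of the estrogen response element in the first Esr1 window.
Vil1 promoter: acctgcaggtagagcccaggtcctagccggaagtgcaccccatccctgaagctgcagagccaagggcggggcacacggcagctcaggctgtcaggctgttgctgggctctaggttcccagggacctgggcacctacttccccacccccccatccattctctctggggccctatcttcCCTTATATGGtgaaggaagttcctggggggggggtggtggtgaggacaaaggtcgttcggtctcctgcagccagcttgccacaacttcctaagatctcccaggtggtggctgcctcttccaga
Esr1 promoter, first start: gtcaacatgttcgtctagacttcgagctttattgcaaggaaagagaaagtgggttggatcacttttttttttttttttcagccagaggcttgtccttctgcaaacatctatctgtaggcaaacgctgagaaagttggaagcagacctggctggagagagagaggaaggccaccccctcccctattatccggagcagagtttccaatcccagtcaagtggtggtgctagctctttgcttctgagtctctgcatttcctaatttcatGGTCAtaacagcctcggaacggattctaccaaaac
Esr1 promoter, second start: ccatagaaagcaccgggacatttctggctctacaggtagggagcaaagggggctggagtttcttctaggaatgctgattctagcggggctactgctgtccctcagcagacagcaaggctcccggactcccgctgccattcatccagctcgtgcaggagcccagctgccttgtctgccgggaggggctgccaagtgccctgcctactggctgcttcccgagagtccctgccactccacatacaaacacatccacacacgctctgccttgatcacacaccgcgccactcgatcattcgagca

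Both strands were searched for 5 motifs. The full estrogen response element was GGTCANNNTGACC. Its single arm was GGTCA, which every full element also holds. The caudal homeobox motif searched was TTTATG. The GATA motif was AGATAA, and the CArG box was the last. The CArG box was added after the Vil1 window had been read. Neither gene held the full element, which was present in 0.0707% of 32544 promoter windows of the same length. The single arm was present in 40.5% of windows and the CArG box in 1.64%. TTTATG, in 11.9% of windows, and AGATAA, in 11.2%, did not occur in the windows shown. These matches describe the letters only.

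Esr1 was high in every DKO library and near the detection limit in every control library, at both times. Values are CPM, a gene's share of all reads in genes, put on a scale common to all libraries. At the acute time Esr1 had a lowest, median and highest value of 32.7, 38.0 and 41.2 CPM in the 7 DKO libraries, and 0.387, 0.339, 0.454, 0.424 and 0.212 CPM in control libraries 1 to 5. The prolonged libraries had 32.8, 28.3, 34.5, 35.1 and 32.5 CPM in DKO libraries 1 to 5, and 0.259, 0.172 and 0.403 CPM in control libraries 1 to 3. The groups did not overlap at either time. The libraries behind these values held between 9914738 and 26586045 reads in genes. Prolonged control 3 held the fewest.

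In reads, the acute DKO libraries held 731 to 1053 Esr1 reads each and the acute control libraries 4 to 10. The prolonged DKO libraries held 412 to 724 Esr1 reads each and the prolonged control libraries 3 to 6. Summed over libraries and relative to all reads in genes, DKO over control gave a ratio of 104 at the acute time, with a 95% exact interval from 75.9 to 146. The same ratio was 127 at the prolonged time, with an interval from 74.3 to 239. Both intervals cover counting error only, and their width is set by the 39 and 13 Esr1 reads in all acute and all prolonged controls.

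Mean Esr1 was 37.7 ± 2.93 CPM in acute DKO libraries (SD, n = 7) and 0.363 ± 0.0946 CPM in acute controls (SD, n = 5). It was 32.6 ± 2.69 CPM in prolonged DKO libraries (SD, n = 5) and 0.278 ± 0.117 CPM in prolonged controls (SD, n = 3). The difference of means of log2(CPM + 1), DKO minus control, was 4.83 (SE 0.09) at the acute time and 4.72 (SE 0.11) at the prolonged time. This scale understates the change of a gene this low in the controls, and the authors' deposited table gives log2 fold changes of 6.80 (SE 0.25) and 7.00 (SE 0.41). No test is given, since Esr1 was chosen for this difference. Esr1 had the largest difference of the 13601 genes tested at the acute time and of the 13316 tested at the prolonged time. The next largest were Zbtb16, which encodes a zinc finger transcription factor, with 2.82 at the acute time, and Scd1, which encodes a fatty acid desaturase, with 3.02 at the prolonged time.

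Vil1, in contrast, was abundant in every library, and its DKO libraries stood a little above the controls. At the acute time its lowest, median and highest values were 2627, 2906 and 3141 CPM in DKO libraries, and control libraries 1 to 5 had 2230.5, 2389.8, 1937, 2216 and 2619 CPM. Prolonged Vil1 was 3182, 3211, 2944, 3156 and 3141 CPM in DKO libraries 1 to 5, and 2484, 2931 and 2845 CPM in control libraries 1 to 3. Every DKO library was above every control library at both times, by a margin narrower than the spread within either group. The lowest acute DKO library, 7, had 2627 CPM and the highest acute control, 5, had 2619 CPM. The lowest prolonged DKO library, 3, had 2944 CPM and the highest prolonged control, 2, had 2931 CPM. As the genes were chosen with these values known, the share of tested genes in which every DKO library was higher, 1.24% at the acute time and 8.82% at the prolonged time, is given as background only.

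Mean Vil1 was 2894 ± 183 CPM in acute DKO libraries (SD, n = 7) and 2279 ± 251 CPM in acute controls (SD, n = 5), which is 27.0% higher. It was 3127 ± 106 CPM in prolonged DKO libraries (SD, n = 5) and 2754 ± 237 CPM in prolonged controls (SD, n = 3), which is 13.6% higher. DKO minus control was 0.35 (SE 0.09) at the acute time and 0.19 (SE 0.08) at the prolonged time on the log2(CPM + 1) scale. The prolonged value was 0.11 without control 1. The authors' deposited table gives 0.44 (SE 0.11) and 0.19 (SE 0.08). At the acute time 569 genes had a larger positive difference than Vil1, or 4.18% of those tested, and at the prolonged time 2207, or 16.6%. In bulk samples, fewer cells of a type and less RNA per cell cannot be told apart, and this holds for every level given here.

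**Figure D1:**
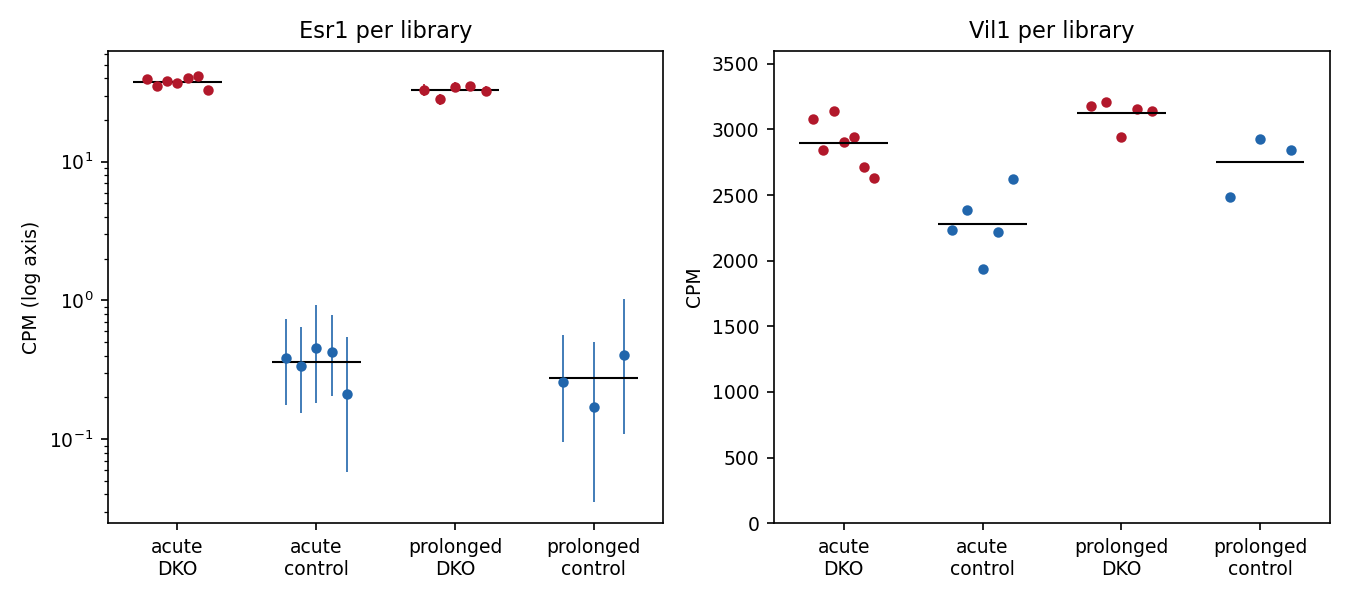
Esr1 (left, log axis) and Vil1 (right, axis from 0) in CPM, 1 point per library, DKO in red and control in blue, with a line at each group mean and, for Esr1, bars for the 95% interval of counting error. Esr1 lies between 28.3 and 41.2 CPM in all DKO libraries and between 0.172 and 0.454 CPM in all controls, while Vil1 stays between 1937 and 3211 CPM in all libraries.

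In added CPM the order of both genes was the reverse of that in fold. The DKO mean exceeded the control mean by 37.3 CPM for Esr1 and by 615 CPM for Vil1 at the acute time, so the Vil1 excess was 16.5 times the Esr1 excess. The prolonged excesses were 32.4 CPM for Esr1 and 373 CPM for Vil1, a ratio of 11.5. Gene length differs as well. The union of annotated exons spans 13.661 kb for Esr1, on chromosome 10, and 3.551 kb for Vil1, on chromosome 1 (GENCODE vM21, GRCm38), both on the plus strand. Per kb of exon, Esr1 stood at 2.76 CPM in acute DKO libraries and 0.0266 CPM in acute controls, and Vil1 at 815 CPM in acute DKO libraries and 642 CPM in acute controls. Prolonged Esr1 stood at 2.39 CPM per kb in DKO libraries and 0.0204 CPM per kb in controls, and Vil1 at 881 CPM per kb in DKO libraries and 775 CPM per kb in controls. The per-length level of Vil1 was 295 times that of Esr1 in acute DKO libraries and 369 times in prolonged ones. These lengths assume reads over all exons of the endogenous genes.

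The spread of both genes among the DKO libraries was set beside that of genes of like level. For Esr1 the coefficient of variation was 7.78% in the 7 acute DKO libraries, against a median of 10.6% over 2698 genes within 1.5 times its level, of which 26.2% varied less. In the 5 prolonged DKO libraries it was 8.25%, against a median of 6.53% over 2633 such genes, of which 69.5% varied less. For Vil1 it was 6.34% and 3.38%, against medians of 14.1% over 26 and 5.73% over 22 genes of like level. Relative to Vil1, the acute DKO libraries held 1.31 ± 0.104 Esr1 reads per 100 Vil1 reads (SD, n = 7) and the acute controls 0.0164 ± 0.00573 (SD, n = 5). The prolonged DKO libraries held 1.05 ± 0.11 Esr1 reads per 100 Vil1 reads (SD, n = 5) and the prolonged controls 0.0102 ± 0.00416 (SD, n = 3). Single libraries ran from 1.21 to 1.52 among acute DKO and from 0.880 to 1.17 among prolonged DKO libraries.

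Whether Esr1 followed Vil1 from library to library could be asked only in the acute DKO group, with 7 libraries. Pearson's r was 0.45 on the log2(CPM + 1) scale (exact two-sided permutation p = 0.315) and Spearman's rho was 0.32 (exact permutation p = 0.498). Esr1 gave r = -0.52 with Kdm6a (exact permutation p = 0.217; rho = -0.57, exact p = 0.200) and r = 0.51 with Kdm6b (exact permutation p = 0.243; rho = 0.43, exact p = 0.354). After Benjamini-Hochberg adjustment over these 3 relations every exact permutation p was 0.315 for r and 0.498 for rho. Without DKO 3 and 7, the libraries farthest from the median of Vil1, r with Vil1 was -0.06. Without DKO 7 alone it was -0.12 and without DKO 3 alone 0.51, so the positive value rested on DKO 7. Without DKO 6 alone it was 0.85. With libraries scaled by trimmed mean of M values (TMM) factors it was 0.76, with an adjusted exact permutation p of 0.144. Without the 2 libraries farthest from the median, r was 0.30 with Kdm6a and -0.08 with Kdm6b. The 5 prolonged DKO libraries are too few for a correlation.

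**Figure D2:**
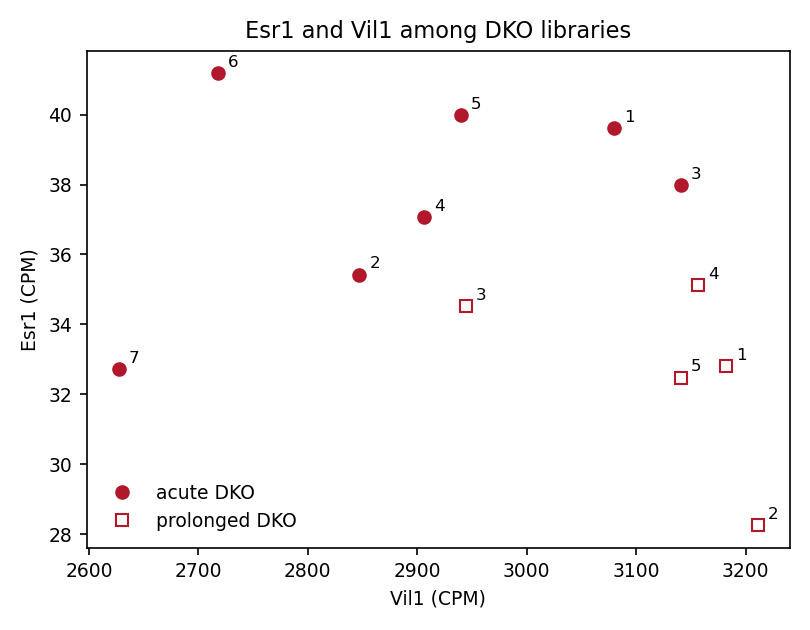
Esr1 against Vil1 in CPM, 1 point per DKO library with its replicate number, filled circles for the acute and open squares for the prolonged time. Among acute libraries DKO 7 is lowest in both genes (32.7 and 2627 CPM) and DKO 6 is highest in Esr1 (41.2 CPM) at a low Vil1. With so few libraries a common order is left undecided.

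The targeted genes gave the check of the labels. Kdm6a averaged 42.6 ± 2.73 CPM in acute DKO libraries (SD, n = 7) and 66.1 ± 6.62 CPM in acute controls (SD, n = 5), and 49.1 ± 3.93 CPM in prolonged DKO libraries (SD, n = 5) and 76.2 ± 5.95 CPM in prolonged controls (SD, n = 3). Kdm6b averaged 70.4 ± 8.87 and 101 ± 6.71 CPM in acute DKO and control libraries, and 76.3 ± 4.98 and 102 ± 3.85 CPM in prolonged ones. Every DKO library was below every control in both genes at both times, as in 6.55% of tested genes in acute and 11.7% in prolonged libraries, and all 4 comparisons passed limma's test with Benjamini-Hochberg adjustment (adjusted p from 0.000145 to 0.00132). Epithelial markers (Epcam, Cdh1, keratins and claudins) were present in every library, with a sum of 9309 to 10753 CPM in DKO libraries and 9320 to 10070 CPM in controls, both times together. Sums of 9 crypt base stem cell markers, of which Olfm4 made up a large part, did not overlap between DKO and control libraries. They were 955 to 1950 CPM in acute DKO libraries and 2143 to 2784 CPM in acute controls, and 1717 to 1964 CPM in prolonged DKO libraries and 2348 to 2731 CPM in prolonged controls.

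Of the markers of other cell types, the 15 genes of stroma, muscle and endothelium summed to 42.9 to 751 CPM in acute DKO libraries and 52.8 to 227 CPM in acute controls. The prolonged stromal sum was 23.2 to 39.1 CPM in DKO libraries and 20.6 to 23.6 CPM in controls. Their part in the values of Esr1 and Vil1 was not tested. Of this list's tested genes, 0 of 12 passed limma's test at the acute time (1 at an unadjusted p under 0.05, 0 by edgeR). Pdgfrb, of pericytes and fibroblasts, was called higher there with TMM scaling (adjusted p = 0.0475), by DESeq2 (adjusted p = 0.0296) and, with limma, without DKO 4 (adjusted p = 0.0472). Of 6 genes tested at the later time 1, again Pdgfrb, passed limma's test (0.60, adjusted p = 0.0415). The Pdgfrb call was lost without any 1 of DKO 1, 3, 4 or 5 or control 2 or 3 (adjusted p from 0.0605 to 0.15 with limma). The 12 immune markers summed to 217 to 671 CPM in acute DKO libraries and 155 to 400 CPM in acute controls, and 145 to 338 CPM in prolonged DKO libraries and 117 to 229 CPM in prolonged controls. None of 12 immune markers was called at the acute time (0 at an unadjusted p under 0.05 with limma, 0 by edgeR). In prolonged libraries 1 of 10 was, Itgam, an integrin of myeloid cells (0.37, adjusted p = 0.0157 with limma, but 0.0515 without control 2). As background, limma called 2.90% of all tested genes higher and 12.1% lower at the acute time, and 5.74% and 8.94% at the prolonged time.

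Villus enterocytes carry more brush border than crypt cells, and the summed level of their markers is set here beside Vil1. The 14 markers summed to 38040 to 50093 CPM in acute DKO libraries and 28888 to 43487 CPM in acute controls. The prolonged sum was 43984 to 48638 CPM in DKO libraries and 33908 to 46467 CPM in controls. In every library this sum was above that of the crypt base stem cell markers, although the series design places the cells in crypts. Sums over different genes do not measure shares of cells. The control with the highest Vil1 at each time, acute control 5 and prolonged control 2, was also the control with the highest enterocyte sum, and the prolonged control with the lowest Vil1, control 1, had the lowest sum. Not every library followed this order. Acute control 3 had the lowest Vil1 of its group, but the lowest sum was in control 1 (28888 CPM, against 32001 CPM in control 3), and prolonged DKO 2 had the highest Vil1 and the lowest sum of its group (43984 CPM). The part of this in the Vil1 difference was not tested. Of the 14 markers 4 were called higher and 1 lower at the acute time, and 2 higher and 1 lower at the prolonged time. Beside these, limma called 2.90% of all tested genes higher and 12.1% lower in acute, and 5.74% and 8.94% in prolonged libraries. Counted without a threshold, 12 of 14 were higher in DKO at the acute time and 11 at the prolonged time. Their median differences were 0.31 and 0.20, against -0.07 and 0.00 over all tested genes. Treh, encoding the brush border enzyme trehalase, was the marker called lower at both times (-0.88, adjusted p = 0.0298, and -0.77, adjusted p = 0.00396, with limma). Enpep, a brush border aminopeptidase, was called higher at both times (0.46, adjusted p = 0.0181, and 0.31, adjusted p = 0.0157, with limma). Slc5a1, for a glucose transporter, was called higher at the acute time (0.63, adjusted p = 0.0410 with limma) and Ada, for adenosine deaminase, at the prolonged time (0.74, adjusted p = 0.0143 with limma). The remaining acute calls, named after their values were seen, were Slc15a1 (0.39) and Anpep (0.43), both higher. The Slc5a1 call was lost without any 1 of DKO 1, 2, 3, 4 or 7 or controls 1 to 4 (adjusted p from 0.0569 to 0.123 with limma). The acute Treh call was lost without any 1 of DKO 3 or controls 2 to 5 (adjusted p from 0.0589 to 0.0696 with limma) and by edgeR (adjusted p = 0.0549), and both Enpep calls were lost without control 3 of their time (0.0572 and 0.0699). With TMM scaling the acute counts were 1 higher and 1 lower.

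The genes around the estrogen receptor were examined by role, with the count of each list read against the background of all tested genes. All gene lists were chosen with earlier results of these data known, so the calls and adjusted p of their members are descriptive. At the acute time limma called 2.90% of tested genes higher and 12.1% lower in DKO, and at the prolonged time 5.74% higher and 8.94% lower, at a Benjamini-Hochberg adjusted p under 0.05. The median difference over all tested genes was -0.07 at the acute time and 0.00 at the prolonged time on the log2(CPM + 1) scale. TMM scaling raised the acute median by 0.08, and acute calls then numbered 660 higher and 1124 lower, against 394 and 1641 on CPM as deposited.

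Among the other steroid receptors, the mineralocorticoid receptor gene Nr3c2 rose at both times. It averaged 49.3 ± 3.60 CPM in acute DKO libraries and 37.6 ± 3.70 CPM in acute controls (0.39, SE 0.07, adjusted p = 0.00356 with limma). Its prolonged means were 50.4 ± 3.97 CPM in DKO libraries and 41.2 ± 1.77 CPM in controls (0.28, SE 0.07, adjusted p = 0.0220 with limma), a call lost without DKO 4, control 1 or control 3 (adjusted p from 0.0526 to 0.0699). Gper1, which encodes a membrane receptor for estrogen, fell at the acute time, with 1.13 ± 0.620 CPM in DKO libraries and 3.48 ± 1.35 CPM in controls (-1.07, SE 0.25, adjusted p = 0.0125 with limma). At the prolonged time Gper1 had 2.34 ± 0.409 CPM in DKO libraries and 3.20 ± 0.483 CPM in controls and was not called (adjusted p = 0.139 with limma). In all, 1 of 5 tested receptors was called higher and 1 lower at the acute time, and 1 of 6 higher and 0 lower at the prolonged time (0 lower by edgeR, 1 lower at an unadjusted p under 0.05). Esr2, for estrogen receptor beta, and Pgr, for the progesterone receptor, were below the filter on low values at the acute time, with mean levels of 0.0378 and 0.0442 CPM in DKO libraries and 0.0226 and 0.0339 CPM in controls.

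The 13 coregulators, which nuclear receptors recruit to activate or repress genes, showed 1 member called lower and 0 higher at each time. The member was Ncoa3, a coactivator, in both cases (-0.29, adjusted p = 0.0125, and -0.28, adjusted p = 0.0360, with limma). The acute Ncoa3 call was lost with TMM scaling (adjusted p = 0.0537) and by edgeR (adjusted p = 0.0538), and the prolonged one without any 1 of DKO 1, 3, 4 or 5 or control 1 or 3 (adjusted p from 0.0578 to 0.139 with limma). The list's median difference was -0.08 in acute and -0.02 in prolonged libraries. No coregulator reached an unadjusted p under 0.05 in the higher direction with limma, while edgeR called 1 higher at the acute time and 0 at the prolonged time.

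The 13 chaperones of steroid receptors had 2 members called lower and 0 higher at the acute time, and 3 lower and 1 higher at the prolonged time. The immunophilin gene Fkbp4 fell at the acute time, with 347 ± 29.6 CPM in DKO libraries and 436 ± 23.4 CPM in controls (-0.33, SE 0.06, adjusted p = 0.00426 with limma). Ptges3, which encodes the HSP90 cochaperone p23, was called lower at the acute time (-0.33, adjusted p = 0.0120 with limma), a call lost with TMM scaling (adjusted p = 0.0963) and by edgeR (adjusted p = 0.0942). Fkbp5, an immunophilin gene induced by glucocorticoid and other steroid receptors, rose at the prolonged time, with 421 ± 149 CPM in DKO libraries and 176 ± 9.03 CPM in controls (1.18, SE 0.22, adjusted p = 0.00381 with limma). At the acute time Fkbp5 averaged 264 ± 173 CPM in DKO libraries and 45.3 ± 25.2 CPM in controls. It was not called there by limma (2.06, SE 0.75, adjusted p = 0.0832) but was by edgeR (adjusted p = 0.0285) and, with limma, without DKO 5 (adjusted p = 0.0137) or DKO 6 (adjusted p = 0.0315). Hsp90aa1, for the inducible HSP90, and Stip1, for an adaptor of HSP70 and HSP90, were called lower at the prolonged time (-0.31, adjusted p = 0.0156, and -0.28, adjusted p = 0.0273, with limma). Ptges3 was the third member called lower there (-0.23, adjusted p = 0.0431 with limma), a call lost without any 1 of DKO 2 to 5 or control 1 or 3 (adjusted p from 0.0642 to 0.133 with limma). The Hsp90aa1 call was lost without control 3 (adjusted p = 0.0904 with limma), and the Stip1 call without any 1 of DKO 2, 3 or 4 or control 1 or 3 (adjusted p from 0.0521 to 0.149 with limma).

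Of the enzymes that make or inactivate estrogens, 0 of 5 tested were called at either time by limma, with 1 and 2 at an unadjusted p under 0.05, and edgeR called 0 in acute and 1 in prolonged libraries. The most abundant was Hsd17b4, a peroxisomal enzyme that oxidises estradiol, with 349 ± 63.0 CPM in acute DKO libraries and 333 ± 34.6 CPM in acute controls. Prolonged levels were 396 ± 25.1 CPM in DKO libraries and 357 ± 23.6 CPM in controls.

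The genes listed as estrogen response genes moved in both directions. Whether the members respond to estrogen in these cells was not tested. Of the 26 listed, 19 were tested at the acute time, with 1 called higher and 1 lower and a median difference of -0.08. Among prolonged libraries 18 were tested, with 3 called higher and 4 lower and a median of -0.03. Ihh, for the Indian hedgehog ligand, fell at both times. It averaged 45.1 ± 11.9 CPM in acute DKO libraries and 80.7 ± 10.6 CPM in acute controls (-0.86, SE 0.15, adjusted p = 0.00260 with limma). Its prolonged means were 49.7 ± 5.78 CPM in DKO libraries and 76.7 ± 1.91 CPM in controls (-0.62, SE 0.09, adjusted p = 0.000708 with limma).

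Areg, for the EGF receptor ligand amphiregulin, was called higher at both times. It averaged 17.0 ± 7.63 CPM in acute DKO libraries and 8.66 ± 3.44 CPM in acute controls (0.88, adjusted p = 0.0335 with limma), and 8.51 ± 2.89 CPM in prolonged DKO libraries and 4.53 ± 0.986 CPM in prolonged controls (0.75, adjusted p = 0.0392 with limma). The acute Areg call was lost without any 1 of DKO 1 or 3 or controls 1 to 4, and the prolonged one without any 1 of DKO 1, 2, 4 or 5 or control 1 or 3 (adjusted p from 0.0511 to 0.134 with limma). At the prolonged time the Wnt ligand gene Wnt4 fell, with 0.229 ± 0.126 CPM in DKO libraries and 1.42 ± 0.303 CPM in controls (-0.97, SE 0.14, adjusted p = 0.000963 with limma). Ltf, for lactoferrin, a classic estrogen-induced product of the uterus, was called lower at the prolonged time (-0.64, adjusted p = 0.0185 with limma), a call lost without control 2 or control 3 (adjusted p = 0.0748 and 0.0536).

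The remaining called members at the prolonged time, named here after their values were seen, were Pdzk1, a scaffold of brush border transporters, lower by the same test (-0.46), and the protease genes Ctsd (0.23) and Prss23 (0.38), both higher. Greb1, a widely used estrogen receptor target also named after its values were seen, had 11.2 ± 3.76 CPM in acute DKO libraries and 11.7 ± 1.37 CPM in acute controls. Its prolonged means were 13.9 ± 2.92 CPM in DKO libraries and 15.4 ± 2.79 CPM in controls, and it was called at neither time (adjusted p = 0.759 and 0.597 with limma).

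**Figure D3:**
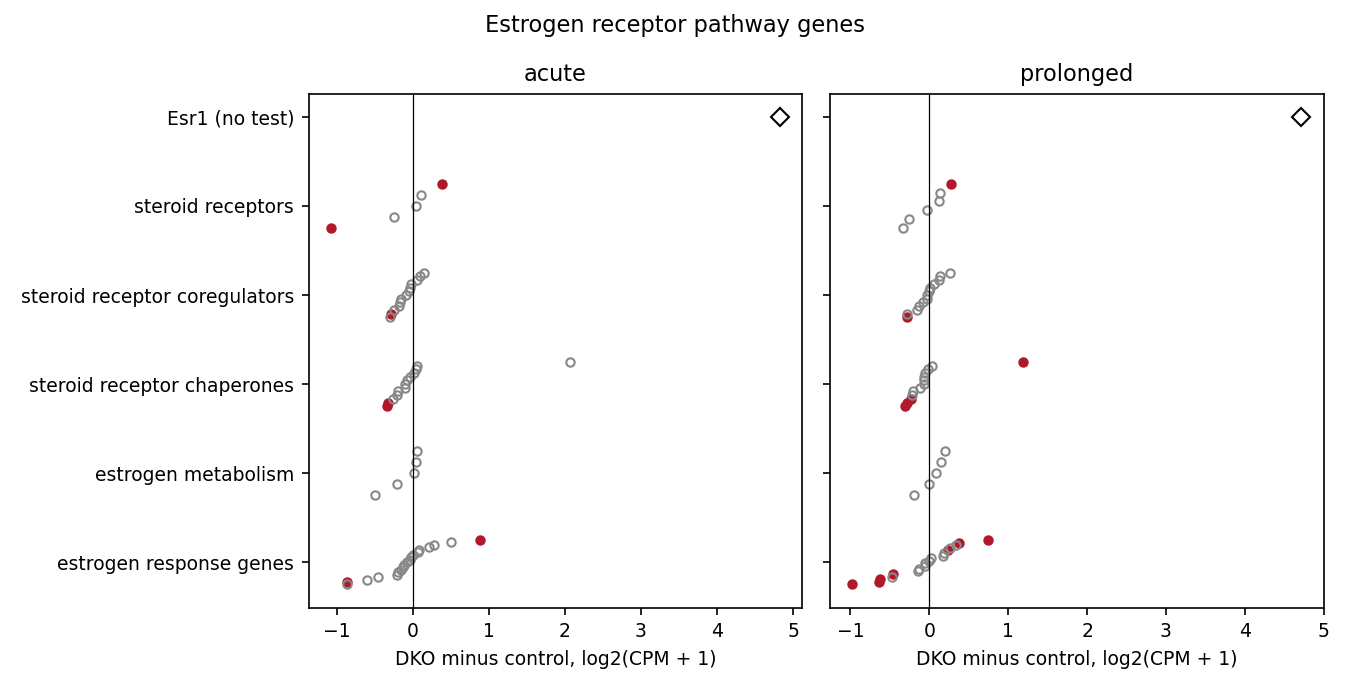
Difference in log2(CPM + 1), DKO minus control, for Esr1 (diamond, no test) and for the tested genes of 5 lists, 1 point per gene, acute on the left and prolonged on the right. Filled red points were called by limma. Esr1 stands at 4.83 and 4.72, while the genes of the lists lie between -1.07 and 2.06 (Gper1 and Fkbp5, both acute).

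Relatives of villin were either called lower or not called. Of 7 other genes of the gelsolin and villin family, whose products cap or sever actin filaments, 3 were called lower and 0 higher at each time. At an unadjusted p under 0.05 none was higher at either time with limma, and edgeR called 0 higher at either time and 1 and 3 lower. The list's median difference was -0.30 in acute and -0.22 in prolonged libraries. Scin, for scinderin, fell at both times. It averaged 143 ± 40.1 CPM in acute DKO libraries and 247 ± 24.8 CPM in acute controls (-0.84, SE 0.18, adjusted p = 0.00845 with limma), and 105 ± 18.1 CPM in prolonged DKO libraries and 241 ± 34.8 CPM in prolonged controls (-1.19, SE 0.13, adjusted p = 0.000118 with limma).

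Gsn, for gelsolin, averaged 10.1 ± 2.77 CPM in prolonged DKO libraries and 18.0 ± 2.59 CPM in prolonged controls (-0.81, SE 0.18, adjusted p = 0.0120 with limma). At the acute time it was also called lower (-0.79, adjusted p = 0.0301 with limma), a call lost with TMM scaling (adjusted p = 0.0665), by edgeR (adjusted p = 0.0950) and, with limma, without any 1 of DKO 1 or 2 or controls 1 to 4 (adjusted p from 0.0502 to 0.0785). The capping protein gene Capg fell at the prolonged time, with 2.09 ± 0.662 CPM in DKO libraries and 8.36 ± 0.811 CPM in controls (-1.62, SE 0.17, adjusted p = 0.000118 with limma). Svil, for supervillin, was called lower at the acute time (-0.21, adjusted p = 0.0167 with limma), but not with TMM scaling or by edgeR (adjusted p = 0.180 in both) nor without control 4 (adjusted p = 0.0509 with limma). Flii (0.03 and 0.10), Vill (-0.29 and -0.14) and Avil (-0.30 and -0.22) were called at neither time.

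Of 25 other genes of the brush border and microvillus core, 2 were called higher and 0 lower at the acute time, although 4 were lower at an unadjusted p under 0.05 with limma (0 called lower by edgeR). Without acute DKO 3 and 4 together, 2 were called higher and 2 lower. Background shares of all tested genes were 2.90% higher and 12.1% lower in acute, and 5.74% and 8.94% in prolonged libraries. Among prolonged libraries 1 was called higher and 5 lower, against 1 and 3 with TMM scaling. Ezr, for ezrin, which ties microvillar actin to the membrane, rose at the acute time, with 1334 ± 156 CPM in DKO libraries and 994 ± 145 CPM in controls (0.43, SE 0.10, adjusted p = 0.0136 with limma). Cobl, an actin nucleator, was called higher at both times (0.33, adjusted p = 0.0261, and 0.27, adjusted p = 0.0142, with limma). Its acute call was lost without any 1 of controls 1 to 4 (adjusted p from 0.0550 to 0.0773 with limma) and its prolonged one without control 3 (0.0648). Tmigd1, an adhesion protein gene of the brush border, fell at the prolonged time, with 0.776 ± 0.304 CPM in DKO libraries and 4.51 ± 1.98 CPM in controls (-1.58, SE 0.24, adjusted p = 0.00118 with limma). At the acute time it was not called (-0.74, adjusted p = 0.0863 with limma). It was called lower there with limma without DKO 3 (adjusted p = 0.0341), DKO 4 (0.0241) or both (-1.10, adjusted p = 0.000998). The myosin gene Myo1e fell at the prolonged time too (-0.29, SE 0.05, adjusted p = 0.00469 with limma). Eps8 (-0.23) and Calml4 (-0.18), named after their values were seen, were the other genes called lower at the prolonged time by the same test. Cdhr2, a protocadherin that links microvilli, was called at the edge of the threshold (-0.28, adjusted p = 0.0499 with limma) and not with TMM scaling (adjusted p = 0.104), by edgeR (0.0736), or without any 1 of the 5 DKO libraries or control 2 or 3 (adjusted p from 0.0763 to 0.172 with limma).

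**Figure D4:**
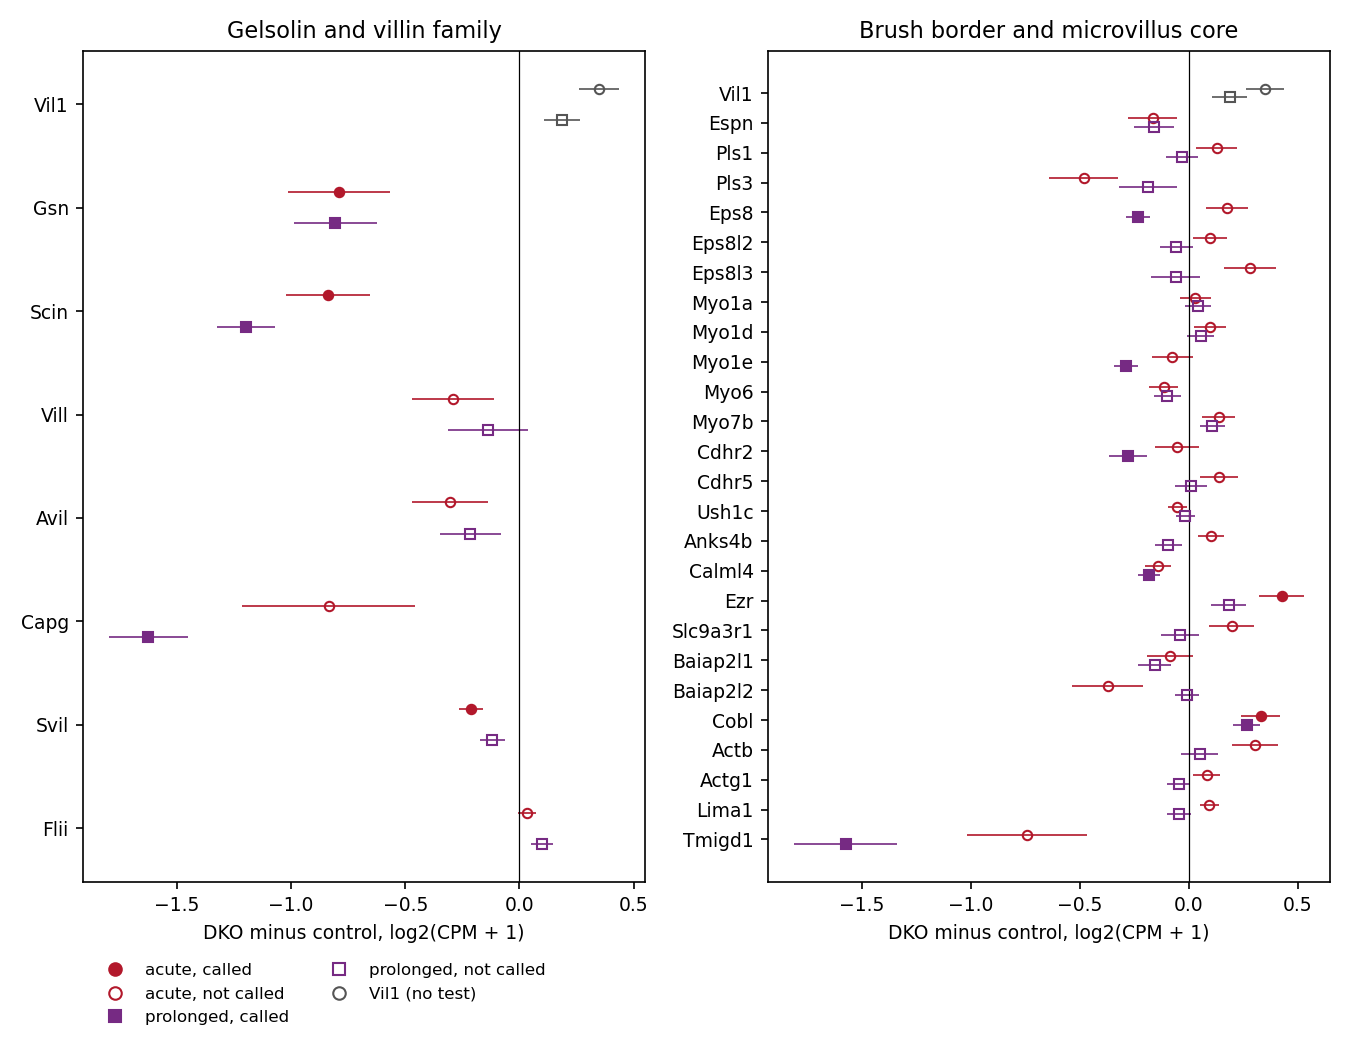
Difference in log2(CPM + 1), DKO minus control, with standard errors for Vil1 (grey, no test) and the gelsolin and villin family (left) or the brush border and microvillus core (right), circles for the acute and squares for the prolonged time, filled where limma called the gene. Vil1 is at 0.35 and 0.19, while the called relatives Scin, Gsn, Svil and Capg lie between -0.21 and -1.62.

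Transcription factors of the intestinal epithelium, several of which bind regulatory regions of gut genes such as Vil1, were counted in the same way. Over all tested genes limma called 2.90% higher and 12.1% lower at the acute time, and 5.74% and 8.94% at the prolonged time. Of 12, Gata6 alone was called at the acute time, higher, with 210 ± 7.88 CPM in DKO libraries and 176 ± 7.63 CPM in controls (0.25, SE 0.04, adjusted p = 0.00224 with limma). None was called at the prolonged time by limma (2 at an unadjusted p under 0.05) or edgeR. Hnf4a, the most abundant, then had 995 ± 58.9 CPM in DKO libraries and 1092 ± 86.8 CPM in controls. Of 8 epithelial markers, only Cdh1 was called at the acute time (-0.18, adjusted p = 0.0347 with limma), and not with TMM scaling (adjusted p = 0.424), by edgeR (0.412) or without any 1 of DKO 1 to 3 or controls 1 to 4 (adjusted p from 0.0625 to 0.0880 with limma). Epcam missed the threshold there (0.19, adjusted p = 0.0628 with limma) but was called higher by edgeR (adjusted p = 0.0348) and DESeq2 (adjusted p = 0.00206). None of the 8 was called at the prolonged time by limma (3 at an unadjusted p under 0.05) or edgeR, where Epcam had 2180 ± 65.5 CPM in DKO libraries and 1953 ± 27.2 CPM in controls. Of 9 crypt base stem cell markers, 4 were called lower in acute and 2 in prolonged libraries. Prom1 (-0.55), Smoc2 (-0.56) and Cdca7 (-0.47) were called with Olfm4 at the acute time, and Cdca7 (-0.28) at the prolonged time. The acute Smoc2 call was lost without any 1 of DKO 3 or controls 1 to 4, and the prolonged Cdca7 call without control 1 or 3 (adjusted p from 0.0527 to 0.0997 with limma). Olfm4 fell at both, with 605 ± 195 CPM in acute DKO libraries and 1193 ± 185 CPM in acute controls (-1.04, SE 0.23, adjusted p = 0.00862 with limma), and 761 ± 80.9 CPM in prolonged DKO libraries and 1311 ± 91.5 CPM in prolonged controls (-0.79, SE 0.09, adjusted p = 0.000137 with limma).

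The genes beside each locus in the RefSeq order of GRCm38.p6 were compared, 3 protein-coding genes on each side. Beside Esr1, the tested neighbours were Armt1 and the nuclear envelope gene Syne1, and neither was called. Armt1 averaged 18.5 ± 1.504 CPM in acute DKO libraries and 20.7 ± 2.17 CPM in acute controls (-0.15, adjusted p = 0.252 with limma), and 20.3 ± 1.23 CPM in prolonged DKO libraries and 22.6 ± 2.52 CPM in prolonged controls (-0.15, adjusted p = 0.316 with limma). Syne1 averaged 6.95 ± 2.28 and 6.01 ± 1.87 CPM in acute DKO and control libraries (0.17, adjusted p = 0.698 with limma), and 6.07 ± 2.38 and 4.23 ± 1.10 CPM in prolonged ones (0.40, adjusted p = 0.300 with limma). Ccdc170, directly upstream of Esr1, was below the filter at the acute time, with 0.0686 CPM in DKO libraries and 0.0879 CPM in controls, as was Rmnd1 at both times. Myct1 and Vip had no values under their names at either time, and Ccdc170 had none at the prolonged time.

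Beside Vil1, Ctdsp1, a phosphatase gene upstream, differed little. It averaged 140 ± 8.08 CPM in acute DKO libraries and 142 ± 5.61 CPM in acute controls (-0.02, adjusted p = 0.819 with limma), and 138 ± 6.66 CPM in prolonged DKO libraries and 129 ± 7.52 CPM in prolonged controls (0.10, adjusted p = 0.298 with limma). Usp37, a deubiquitinase gene directly downstream, was called higher at the acute time, with 97.2 ± 6.97 CPM in DKO libraries and 84.5 ± 4.39 CPM in controls (0.20, SE 0.06, adjusted p = 0.0336 with limma). This call was lost without any 1 of DKO 1, 2, 3 or 6 or controls 1 to 4 (adjusted p from 0.0520 to 0.0937 with limma). At the prolonged time Usp37 had 108 ± 7.61 CPM in DKO libraries and 94.9 ± 1.20 CPM in controls (0.18, adjusted p = 0.0671 with limma). Usp37 lies on the minus strand and shares 49 exonic bases with Vil1 in GRCm38. Use of strand in counting is not stated in these sources, and reads in the shared bases cannot be told apart. Cnot9, of the CCR4-NOT deadenylase complex, was called lower at the acute time (-0.19, adjusted p = 0.0372 with limma) but not with TMM scaling (adjusted p = 0.299) or by edgeR (adjusted p = 0.307), and not at the prolonged time (-0.09, adjusted p = 0.507 with limma). The acute Cnot9 call was also lost without any 1 of DKO 1, 2, 3, 4 or 7 or controls 1 to 4 (adjusted p from 0.0518 to 0.104 with limma). Slc11a1 was not called at the acute time (0.16, adjusted p = 0.888 with limma) and was below the filter at the prolonged time, and Catip and Plcd4 were below it at both.

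The genes whose pattern was most like each member were taken as those with the smallest root mean square difference of log2(CPM + 1), each gene centred on its control mean at each time, over the 20 libraries and among 13088 genes tested at both times. The distance grows with the size of a gene's own difference, so it is not compared between Esr1 and Vil1. For Esr1 the nearest was Popdc3, a gene of the Popeye domain family, at a difference of 2.08, where the median over all genes was 3.74. Zbtb16 (2.11), the Schlafen family gene Slfn5 (2.28), BC064078 (2.58) and Kdelr3, for a retrieval receptor of the endoplasmic reticulum (2.61), followed. These genes were picked for this likeness on the same libraries, so no test of them is given. Popdc3 averaged 3.67 ± 1.48 CPM in acute DKO libraries and 0.346 ± 0.153 CPM in acute controls, and 7.91 ± 0.946 CPM in prolonged DKO libraries and 0.278 ± 0.0421 CPM in prolonged controls.

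The genes nearest to Vil1 in pattern were Sec24d, for a coat protein of vesicles leaving the endoplasmic reticulum, and Acsl5, for an acyl-CoA synthetase of enterocytes, both at 0.0737, where the median over all genes was 0.359. The next were Frmd8 (0.0844), the diacylglycerol kinase gene Dgkq (0.0869) and the peroxiredoxin gene Prdx5 (0.0899). Acsl5 averaged 1913 ± 154 CPM in acute DKO libraries and 1431 ± 165 CPM in acute controls, and 1821 ± 125 CPM in prolonged DKO libraries and 1601 ± 202 CPM in prolonged controls. They too were picked for their likeness and carry no test.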

How the data were processed

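Per the labels' protocols, polyadenylated RNA was sequenced from jejunal epithelium. Per the submitters' processing notes, the tools were STAR, featureCounts 1.6.2, DESeq2, FastQC 0.11.5, bedtools 2.27.1 and SAMtools 1.9, with build mm9 and no role or order given. The authors deposited 1 table per time with CPM per library, not scaled for composition, and log2 fold changes with standard errors. The 14 other columns were not used. All deposited CPM values (100%) were whole multiples of what 1 read is worth, within 0.01 reads, so reads per gene were recovered. For prolonged control 3 this evidence is weaker, since its step lies near 0.1.

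Esr1 and Vil1 were chosen with earlier results of these data known, so their own contrasts carry no test. All gene lists were chosen in the same way, so no set test was run and the calls of their members are descriptive. For the other genes, limma 3.58.1 (R 4.3.3) was fitted to log2(CPM + 1) per table, without covariates, on genes with at least 0.5 CPM in 5 acute or 3 prolonged libraries, and tested on simulated data. Called means an adjusted p (Benjamini-Hochberg) under 0.05. Esr1 passed the filter only through its DKO libraries, and prolonged Wnt4 only through the controls. Named were Esr1, Vil1, Kdm6a, Kdm6b, up to 3 called members per list with the largest differences (or else the most abundant member), the neighbouring genes and the 5 genes most like each member. Alternatives were pseudocounts of 0.1 and 5, no filter, TMM factors, edgeR 4.0.16 and DESeq2 1.42.0 on the recovered reads, a replicate block, each library left out, and acute DKO 3 and 4 left out together. Correlations used exact permutations (scipy 1.17.1). RefSeq promoters and GENCODE exons are of GRCm38, not the submitters' mm9, so positions do not refer to their files.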

Additional observations from a re-analysis of the deposited data

Results flagged for a closer look

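Of 185 groups of 4 to 10 libraries examined for 62 named genes, 11 held a library far from the rest, and chance alone flags about 1 group in 20. Vil1 itself was flagged in the prolonged DKO group, where DKO 3 had 2944 CPM and the others 3141 to 3211 CPM. Without DKO 3, DKO minus control of Vil1 was 0.21 on the log2(CPM + 1) scale, against 0.19 with it. Esr1 was not flagged in any group examined.

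Among genes with a pattern like that of a member, Acsl5 stood at 2038 CPM in prolonged DKO 1 (others 1727 to 1803), Frmd8 at 170 CPM in prolonged DKO 3 (others 157 to 159) and Slfn5 at 10.4 CPM in acute control 1 (others 2.63 to 3.72). Among neighbours of the loci, Cnot9 stood at 79.7 CPM in acute DKO 6 (others 66.7 to 71.8) and Rmnd1 at 0.233 CPM in acute DKO 4 (others 0 to 0.0816). Cdh1 was low in acute control 5, at 893 CPM (others 961 to 981), and high in prolonged DKO 5, at 1012 CPM (others 996 to 999.9). Acute control 5 was also low in Ncoa3, at 44.7 CPM (others 52.7 to 54.1), and in Smoc2, at 113 CPM (others 129 to 131). Hsp90aa1 was low in acute control 2, at 70.5 CPM (others 111 to 129). No cause of these values was tested.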

How the results depend on the processing

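The Esr1 difference kept its direction under every alternative run, and its size depended on the scale. Against 4.83 and 4.72 at the acute and prolonged times, it was 6.37 and 6.48 with a pseudocount of 0.1, 2.99 and 2.83 with a pseudocount of 5, 6.77 and 6.96 by edgeR, and 6.80 and 7.00 by DESeq2. Leaving out 1 library gave 4.79 to 4.86 and 4.66 to 4.79. The Vil1 difference also kept its direction under every alternative run, at 0.29 to 0.40 and 0.11 to 0.23 with 1 library left out. It was 0.44 and 0.20 with TMM factors. The correlation of Esr1 with Vil1 ran from -0.12, a reversal, without DKO 7 to 0.85 without DKO 6, and passed its threshold under none of the alternatives run. The count of all called genes was 2035 and 1955, and fell to 1237 without acute control 3 and to 1052 without prolonged control 3 (ranges 1237 to 2185 and 1052 to 1724). Leaving out acute DKO 3 and 4 together gave 1707 called genes. Of the named genes 5 then gained a call (Capg, Ltf, Myo1e, Stip1 and Tmigd1, all lower). Another 5 lost theirs, among them Cdh1, Cnot9 and Slc5a1.

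Samples sharing a replicate number did not deviate together. Correlations of their deviations were -0.20 to 0.20 at the acute and -0.24 to -0.16 at the prolonged time. This gave no sign that the numbers pair the samples, but it cannot exclude pairing. With the replicate block, 947 acute and 528 prolonged genes were called, Esr1 differed by 4.84 and 4.68, and Vil1 by 0.39 and 0.18. Of the 35 named genes called at the acute time, 21 kept their call with each library left out in turn and 18 with the block, and of 33 at the prolonged time 20 and 14. These counts include the 5 genes picked for likeness to each member on the same libraries. They therefore do not measure how stable calls are for genes chosen otherwise. Esr1 had between 3 and 10 reads per control library, so small differences among controls would be hidden by counting error. No comparison among controls was run.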
